A study of Mus musculus with 64 samples.

Results

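The tumors of Cre-positive and Cre-negative PyMT mice were compared as 2 sides of 4 tumors each, which together are all 8 tumors and all 64 lane libraries of the series. The Cre-negative side held tumors 6 and 8 of mouse G144 (Abi1 fl/wt) and tumors 6 and 9 of mouse G184 (Abi1 fl/fl). The Cre-positive side held tumors 3 and 6 of mouse G164 (Abi1 fl/wt) and tumors 1 and 6 of mouse G174 (Abi1 fl/fl). All 4 mice carried PyMT, which is the polyomavirus middle T antigen under the mouse mammary tumor virus (MMTV) promoter, and at least 1 floxed Abi1 allele. Each side therefore had 1 fl/wt and 1 fl/fl mouse and, by the pathology records of the study, 1 younger (G144, G174) and 1 older (G164, G184) mouse. The MMTV promoter drives Cre recombinase mainly in mammary epithelium. Whether stroma, vessels and immune cells of a tumor kept the floxed alleles was not tested. By the study's methods the MMTV-Cre line came from a mixed strain background, whereas the PyMT and floxed Abi1 lines were on C57BL6. With 2 mice on each side, anything else that differed between these mice, their strain background included, cannot be told apart from Cre.

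The product of Abi1 is an adaptor protein in the WAVE complex, which activates the ARP2/3 complex downstream of Rac to nucleate branched actin filaments. PyMT transforms the mammary epithelium through Src, PI3 kinase and Ras signaling, and the tumors that form are mostly luminal. Cre itself has no row in the mouse annotation, and Abi1 was the gene that checked the labels. Total RNA was sequenced after removal of ribosomal RNA, and reverse-strand counts were summed over 2 runs of 4 lanes for each tumor, to 50346075 to 69264893 counts in genes. Levels are CPM, that is counts scaled to the sequencing depth of a tumor, after TMM scaling over the 22187 genes that passed a filter on low counts. In bulk tumors, fewer cells of a type and less RNA per cell cannot be told apart.

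Abi1 was lower in all 4 Cre-positive tumors. The tumors of G144 had 111 and 130 CPM, and those of G184 had 114 and 122 CPM. Tumors 3 and 6 of G164 had 63.1 and 66.7 CPM, and tumors 1 and 6 of G174 only 8.93 and 6.47 CPM. The sides did not overlap, and within the Cre-positive side the fl/fl tumors lay far below the fl/wt tumors. Over tumors, where each mouse had its own mean and the sides were compared as averages of 2 mice, edgeR gave a log2 fold change of -2.42 (SE 0.12, adjusted p = 0.00116). Over mice, with 2 against 2, it gave -1.71 (SE 0.97, adjusted p = 1.0). The change was larger in the fl/fl pair than in the fl/wt pair (log2 difference -3.05, SE 0.23, adjusted p = 0.000889 from edgeR). The gene lies on chromosome 2 of GRCm38 from 22940073 to 23040241.

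Very few genes separated the sides. In edgeR's quasi-likelihood test over tumors, 13 genes were higher and 7 lower in Cre-positive tumors (0.0586% and 0.0316% of the genes tested, together 0.0901%). That p-value measures the spread between the tumors of a mouse, not between mice. With counts summed per mouse, 0 of 23281 genes passed edgeR's test, 191 had an unadjusted p under 0.05, and DESeq2 called 22. An exact permutation test of 2 mice against 2 cannot go below p = 0.333. A gene was counted as without overlap where the lowest tumor of one side lay above the highest of the other, and 188 genes were higher and 211 lower in Cre-positive tumors by that count (0.847% and 0.951%, together 1.80% of the genes tested). Of these 399 genes, 11 also passed the test over tumors. Over the 399, the median absolute log2 fold change was 0.44, against 0.14 over all genes tested. The rule itself favors larger changes, so that contrast was built in. Of the 399, 81 changed by more than 1 on the log2 scale. Only 24 had a gap of at least 1.5-fold between the sides. The other labelled factor, fl/fl against fl/wt, gave 658 genes without overlap over the same tumors (2.97%). Without TMM, by library size alone, the split moved from 188 higher and 211 lower to 258 higher and 109 lower.

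Agouti, the gene a, had the largest difference. Its product is a secreted antagonist of melanocortin receptors that switches hair pigment from black to yellow, and C57BL6 mice carry a non-agouti allele. In the Cre-negative tumors a was at 0.0762 and 0.0538 CPM (G144) and at 0.0988 and 0.0777 CPM (G184). In the Cre-positive tumors it was at 122 and 123 CPM (G164) and at 60.9 and 116 CPM (G174). All 4 Cre-positive tumors expressed it, and the lowest lay 617-fold above the highest Cre-negative tumor. The Cre-negative tumors together held 20 counts and the Cre-positive tumors 25734, a ratio of 1358 scaled for depth (95% exact interval 879.1 to 2223, counting error only). The log2 fold change over tumors was 10.37 (SE 0.32, adjusted p = 6.86e-05 from edgeR). Per mouse it was 10.4 (SE 0.35, adjusted p = 0.0512 from edgeR), the smallest adjusted p of all genes and just above the threshold of 0.05. The difference was 10.82 between G164 and G144 and 9.93 between G174 and G184, and these did not differ by the test of the pairs (difference -0.89, SE 0.87, adjusted p = 0.476 from edgeR).

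The annotated agouti gene runs from 154791402 to 155051012 on the plus strand of chromosome 2 and shares that strand with Raly, an RNA-binding protein gene. Raly was at 140 to 181 CPM in the Cre-negative and at 127 to 171 CPM in the Cre-positive tumors, and Eif2s2, on the other strand, at 108 to 139 and at 106 to 129 CPM. Both overlapped between the sides. How reads in the stretch shared with Raly were counted was not tested. Of the 14 genes of pigmentation and of agouti's pathway, 6 were measured. Only a lay without overlap or passed the test, against 1.80% without overlap and 0.0901% passing over all genes tested. The agouti cofactors Atrn (64.5 to 81.3 CPM Cre-negative, 70.0 to 83.7 CPM Cre-positive) and Mgrn1 (62.2 to 79.5 and 71.0 to 94.7 CPM) overlapped between the sides. The receptor genes Mc1r, Mc3r and Mc4r did not pass the filter on low counts.

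**Figure D1:**
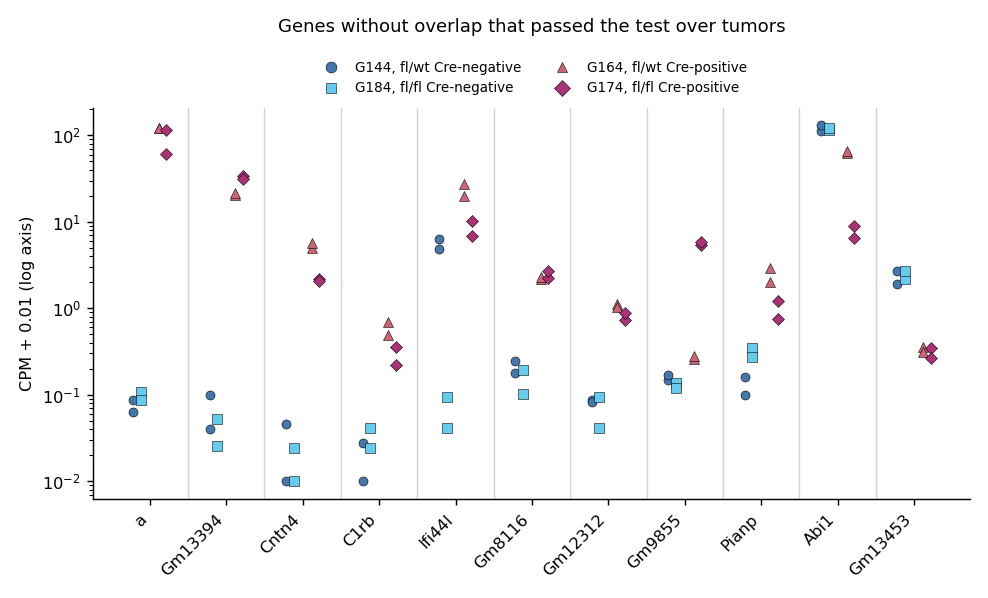
CPM (with 0.01 added, log axis) of the 11 genes without overlap that passed the test over tumors, each point a tumor, with the shape and color giving the mouse. Agouti (a) lies at 60.9 to 123 CPM in the Cre-positive tumors and under 0.1 CPM in the Cre-negative ones; Abi1 and Gm13453 are lower in the Cre-positive tumors.

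Chromosome 6 held 4 further genes with wide gaps. Cntn4 encodes contactin 4, an adhesion molecule of the neuronal surface anchored to the membrane by lipid. It had 0 and 0.0359 CPM in G144 and 0.0141 and 0 CPM in G184, or 3 counts in 4 libraries. It had 4.92 and 5.61 CPM in G164 and 2.18 and 2.06 CPM in G174, or 888 counts. The ratio scaled for depth was 312 (95% exact interval 106.5 to 1518), and the log2 fold change over tumors was 7.99 (SE 0.49, adjusted p = 0.00286 from edgeR). Both Cre-positive mice showed it, with the G164 tumors above the G174 tumors. Cntn4 lies from 105677660 to 106699310.

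C1rb, C1s2 and Pianp lie within 124570294 to 125003096 of chromosome 6. C1rb and C1s2 are paralogs of the complement proteases C1r and C1s, and Pianp encodes a membrane ligand of the receptor PILR alpha. Pianp was at 0.152, 0.0896, 0.339 and 0.264 CPM in the Cre-negative tumors and at 1.98, 2.89, 1.22 and 0.738 CPM in the Cre-positive tumors, with a log2 fold change of 2.99 (SE 0.29, adjusted p = 0.0248 from edgeR). C1rb had 4 counts in the Cre-negative and 103 in the Cre-positive tumors, and its log2 fold change of 4.68 (SE 0.53, adjusted p = 0.0490 from edgeR) lost its call without any 1 of the 8 tumors (adjusted p = 0.0735 to 0.229). Pianp lost its call without any Cre-negative or G164 tumor (adjusted p = 0.0713 to 0.213). C1s2 was at 0.395 to 0.853 CPM in the Cre-negative and at 1.45 to 2.67 CPM in the Cre-positive tumors, without overlap, but its log2 fold change of 1.92 (SE 0.28) did not pass (adjusted p = 0.133 from edgeR). Their more abundant neighbours and paralogs did not follow: C1s1 was at 24.4 to 62.5 CPM against 15.2 to 39.1 CPM, and C1ra at 8.96 to 29.0 against 8.23 to 25.1 CPM. How counting divided reads between these paralogs was not tested.

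Of the 11 genes that separated the sides and passed the test, 5 were processed pseudogenes, copies of spliced mRNAs put back into the genome. With or without overlap, 7 of 1252 processed pseudogenes passed the test, against 12 of 15673 protein-coding genes and 0.0901% of all genes tested. Pseudogenes share reads with their source gene, so their counts are uncertain and depend on the few bases in which the copies differ. Gm13394 (chromosome 2, 28933610 to 28934609, within the bounds of Cfap77 on the same strand) is a copy of Gapdh, the glycolytic enzyme gene on chromosome 6. Over its 1000 bases it differed from the Gapdh transcript at 1 base, A438C, where positions count from 1 at the 5′ end of the Gapdh transcript and its base is named first. The stretches around that base are shown 5′ to 3′ from the GENCODE M21 transcripts, within the Gapdh coding sequence, with the differing base in capitals.
Gapdh: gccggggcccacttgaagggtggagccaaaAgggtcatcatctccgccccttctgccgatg
Gm13394: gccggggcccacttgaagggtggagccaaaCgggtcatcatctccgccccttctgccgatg

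Gm13394 was at 0.0305 and 0.0896 CPM in G144 and at 0.0423 and 0.0155 CPM in G184. It was at 20.5 and 21.2 CPM in G164 and at 33.5 and 31.1 CPM in G174. The Cre-negative tumors together held 11 counts and the Cre-positive tumors 6666, and the log2 fold change over tumors was 9.22 (SE 0.26, adjusted p = 6.86e-05 from edgeR). Gapdh itself overlapped between the sides, at 268 to 430 CPM in the Cre-negative and at 242 to 376 CPM in the Cre-positive tumors. Relative to the Gapdh count of the same tumor, Gm13394 was nearly constant among the Cre-positive tumors, at 8.48%, 8.53%, 8.97% and 8.27%, although Gapdh itself differed by a factor of over 1.5 among them. In the Cre-negative tumors it was at 0.00579% to 0.0208% of Gapdh. Gm13394 was also the gene that kept its call over tumors in all 17 alternatives, and the only 1 called by limma with the mouse as a random block.

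Gm8116 (chromosome 9, 78820638 to 78821838) is a copy of Carnmt1, a carnosine methyltransferase gene on chromosome 19, and differed from it at 2 of 1201 bases, C374G and A1112T. The stretch around the second of these is shown with the base in capitals.
Carnmt1: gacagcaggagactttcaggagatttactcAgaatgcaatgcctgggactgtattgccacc
Gm8116: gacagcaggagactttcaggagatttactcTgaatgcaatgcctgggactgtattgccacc

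Gm8116 was at 0.0932 to 0.233 CPM in the Cre-negative and at 2.15, 2.26, 2.25 and 2.69 CPM in the Cre-positive tumors, with a log2 fold change of 3.79 (SE 0.25, adjusted p = 0.00405 from edgeR). That was 18.7% to 21.9% of the Carnmt1 count in Cre-positive and 0.743% to 1.53% in Cre-negative tumors. Carnmt1 lay the other way, at 12.5 to 15.97 CPM in the Cre-negative and at 10.3 to 12.3 CPM in the Cre-positive tumors, without overlap and without passing the test (log2 fold change -0.31, adjusted p = 0.457 from edgeR). Gm12312, 96.9% identical to Fgfr1op2, was at 0.0311 to 0.0847 CPM against 0.716 to 1.10 CPM (log2 fold change 3.76, SE 0.30, adjusted p = 0.00897 from edgeR). Gm12312 no longer passed when a tumor of G144 (adjusted p = 0.108 or 0.13) or a tumor of G164 (0.0581 or 0.0516) was left out, or with the second run alone (0.0738).

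Gm13453 (chromosome 2, 40127504 to 40127860) went down instead. It is a copy of Atp6v1g1, a subunit of the proton pump of lysosomes, and differed from it at 2 of 357 bases, G238A and C328A. The stretch around the second of these is shown.
Atp6v1g1: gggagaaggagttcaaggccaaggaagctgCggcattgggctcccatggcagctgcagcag
Gm13453: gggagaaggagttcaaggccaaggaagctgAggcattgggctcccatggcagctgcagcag

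Gm13453 was at 2.71, 1.90, 2.19 and 2.70 CPM in the Cre-negative tumors and at 0.343, 0.305, 0.335 and 0.256 CPM in the Cre-positive tumors, with a log2 fold change of -2.93 (SE 0.22, adjusted p = 0.00571 from edgeR). It lost its call without either tumor of G164 (adjusted p = 0.0581 and 0.0539). Relative to Atp6v1g1 it was at 1.57% to 2.52% in the Cre-negative and at 0.270% to 0.357% in the Cre-positive tumors. Gm9855, a copy of Tdg that differed at 9 of 1194 bases, was high in a single mouse: it was at 0.109 to 0.161 CPM in the Cre-negative tumors, at 0.248 and 0.273 CPM in G164 and at 5.39 and 5.87 CPM in G174. Its sides did not overlap, and it passed the test over tumors (log2 fold change 3.18, SE 0.19, adjusted p = 0.00286 from edgeR), but the fl/wt pair alone did not (0.80, SE 0.27, adjusted p = 0.204 from edgeR). Over all 1252 genes annotated as processed pseudogenes, 27 lay without overlap (2.16%), against 1.80% of all genes tested and 1.67% of protein-coding genes.

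**Figure D2:**
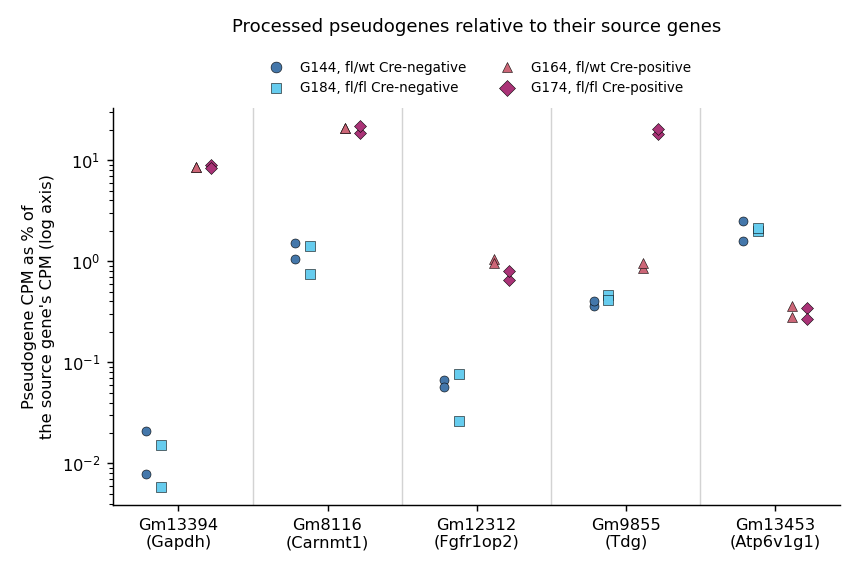
Counts of 5 processed pseudogenes as a percent of the count of their source gene, named in brackets, in each tumor (log axis), with the shape and color giving the mouse. Gm13394 holds 8.27% to 8.97% of the Gapdh count in every Cre-positive tumor, and Gm9855 is high in both tumors of G174 only.

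The 20 genes that passed the test over tumors were split into 2 kinds by whether the sides overlapped. The first kind was the 11 genes without overlap, in which both pairs of mice must agree in sign by that rule. Of these, a, Gm13394, Cntn4, C1rb, Gm8116, Gm12312 and Gm13453 had no difference between the pairs past the test (adjusted p from 0.160 for Gm13394 to 0.958 for Cntn4, from edgeR), whereas Abi1, Ifi44l, Gm9855 and Pianp changed unequally. Ifi44l, an interferon-induced gene, was at 4.89 and 6.33 CPM in G144, at 0.0847 and 0.0311 CPM in G184, at 27.2 and 19.6 CPM in G164 and at 10.1 and 6.79 CPM in G174. Its log2 fold change was 2.06 in the fl/wt pair and 7.12 in the fl/fl pair (difference 5.06, SE 0.55, adjusted p = 0.00253 from edgeR). None of the 16 genes of the interferon list, which does not hold Ifi44l, lay without overlap, against 1.80% of all genes tested. At that share a list of 16 can easily hold none. In 15 of the 16 the difference between the pairs passed the test, against 25.1% of all genes tested.

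The second kind was the 9 genes whose sides overlapped. In each of these the tumors of G184, the fl/fl Cre-negative mouse, lay apart from those of at least 2 other mice, and the difference between the pairs passed the test. Gbp2, an interferon-induced GTPase, was at 963 and 682 CPM in G184 and at 44.7 to 111 CPM in the other 6 tumors. Irf1, a transcription factor of the interferon gamma response, was at 312 and 262 CPM in G184 and at 89.8 to 106 CPM in the others, Apol6 at 167 and 199 against 4.42 to 35.4 CPM, and Gm4841 at 56.3 and 44.6 against 0.527 to 1.89 CPM. Clec9a, a receptor of cross-presenting dendritic cells, was at 4.43 and 4.57 CPM in G184, at 1.83 and 1.84 CPM in G164 and below 0.7 CPM in G144 and G174. Wls, which carries Wnt proteins to the cell surface, was low in G184 at 170 and 175 CPM, against 462 to 583 CPM elsewhere. AC165951.1 had 0.0141 and 0 CPM in G184, against 6.53 to 10.3 CPM, and Atp6v0c-ps2 and Gm14292, both pseudogenes, were also low in G184. Of these 9, only AC165951.1 kept its call without each tumor in turn. None of the 9 separated Cre-positive from Cre-negative tumors, although the average of 2 mice did. Over all genes, the difference between the pairs passed the test in 5579 (25.1%), against 20 for the Cre average. By its arithmetic that difference also sets the younger mice (G144, G174) against the older ones (G164, G184). An unequal Cre difference and an age difference therefore cannot be told apart. Its p-value, too, measures only the spread between the tumors of a mouse.

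**Figure D3:**
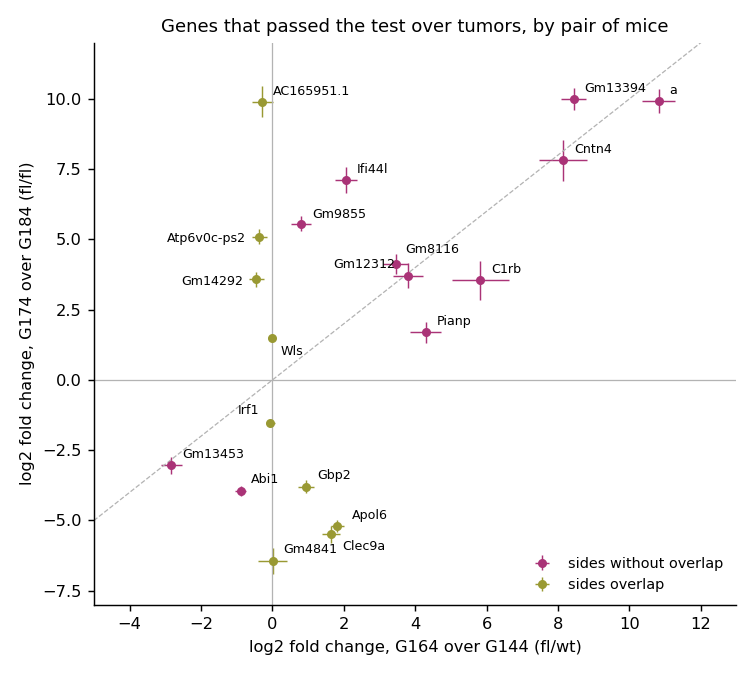
Log2 fold change of Cre-positive over Cre-negative tumors in the fl/wt pair (G164 over G144, x axis) and in the fl/fl pair (G174 over G184, y axis) for the 20 genes that passed the test over tumors, with SEs. Genes without overlap between the sides must agree in sign in both pairs by that rule. Those that overlap lie near 0 or on the other side of 0 for the fl/wt pair.

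Genes without overlap were found on all autosomes and on X, with shares from 0.473% of genes tested on chromosome 17 to 3.05% on chromosome 6, against 1.80% over all genes. Chromosome 6 had 38 of 1244 genes, of which 17 were higher and 21 lower in Cre-positive tumors. Chromosome 12 followed with 24 of 866 (2.77%), X with 17 of 673 (2.53%) and chromosome 4 with 30 of 1252 (2.40%). Chromosome 2, which holds Abi1, a, Gm13394 and Gm13453, had 33 of 1644 (2.01%). Without G184 tumor 9 the order changed: chromosome 6 stood at 4.03%, against 4.08% over all genes. These are counts with no test, and neighbouring genes are not independent.

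Some chromosomes leaned one way. On chromosome 16 all 10 genes without overlap were higher in Cre-positive tumors, on chromosome 11 17 of 20 and on chromosome 8 13 of 15, whereas on X 16 of 17 and on chromosome 7 16 of 22 were lower. Because the tumors can differ in whole chromosomes, the median deviation of each chromosome's genes from their mean over tumors was read in every tumor, on the log2 scale. For chromosome 16 it was 0.303 and 0.165 in G174 but -0.016 and -0.146 in G164, and -0.154 to -0.044 in the Cre-negative tumors, so the shift was in 1 Cre-positive mouse. For chromosome 11 it ran from -0.256 (G184 tumor 9) to 0.227 (G174 tumor 6), for chromosome 8 from -0.159 to 0.318 and for chromosome 17 from -0.177 to 0.246, with both sides overlapping on each. The median of X was 0.012 to 0.086 in the Cre-negative and -0.049 to -0.035 in the Cre-positive tumors, without overlap, and that of chromosome 3 was -0.015 to 0.091 and -0.042 to -0.022. Both differences were small: over the 673 genes tested on X the median log2 fold change was -0.0894, against -0.0054 over all genes. Rbm3, which encodes an RNA-binding protein induced by cold, was at 170 to 194 CPM in the Cre-negative and at 153 to 169 CPM in the Cre-positive tumors, and Pgrmc1, a heme-binding membrane protein gene, at 148 to 156 and at 136 to 138 CPM. Neither of these X-linked genes, named after their values were seen, passed the test (adjusted p = 0.507 and 0.560 from edgeR).

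**Figure D4:**
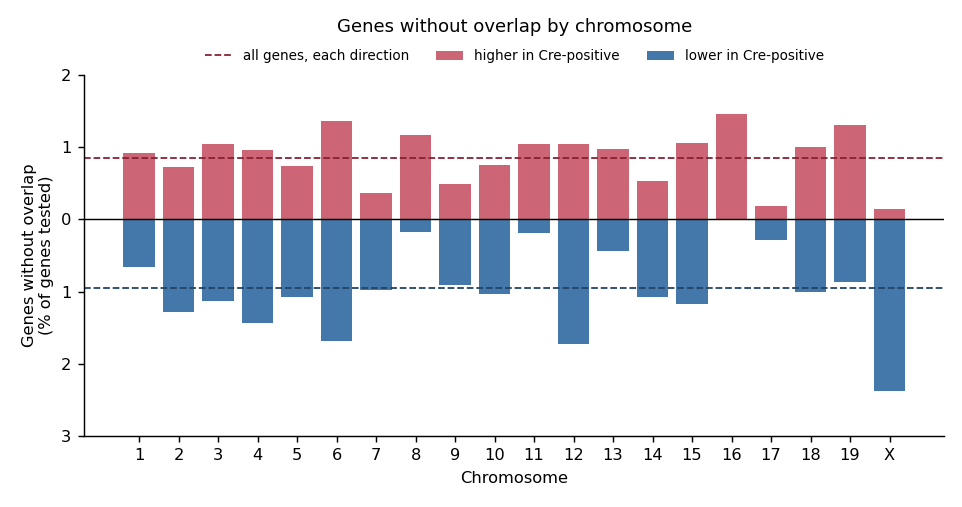
Genes without overlap as a percent of genes tested on each chromosome, higher in Cre-positive tumors above 0 and lower below it. Dashed lines mark all genes in each direction (0.847% and 0.951%); chromosome 6 has the largest total share (3.05%), chromosome 16 has only higher genes and X nearly only lower ones.

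In windows of 10 Mb, 102 of 276 windows with tested genes held no gene without overlap, 15 held at least 5, and the most in a window was 8. By number of such genes, the leading window was chromosome 6 from 140 to 150 Mb, with 8 of 87 genes (9.20%), and 3 windows held 7: chromosome 6 from 110 to 120 Mb (7 of 108, 6.48%), chromosome 1 from 170 to 180 Mb (7 of 148, 4.73%) and chromosome 19 from 0 to 10 Mb (7 of 251, 2.79%). By share, chromosome 4 from 60 to 70 Mb came first (4 of 35, 11.4%). Genes are named from the first 3 of the windows by number, with the tie broken by share. The changes in these 3 windows were modest and none passed the test. In the first window Ccdc91, which encodes a Golgi adaptor protein, was at 42.8 to 55.2 CPM in the Cre-negative and at 36.0 to 40.0 CPM in the Cre-positive tumors (log2 fold change -0.35, SE 0.07, adjusted p = 0.304 from edgeR). Bcat1, a branched-chain aminotransferase gene, was at 0.326 to 1.02 against 1.05 to 2.10 CPM, and Pthlh, which encodes parathyroid hormone-related protein, at 0.838 to 2.95 against 0.533 to 0.754 CPM. Stk38l, a kinase gene, was at 57.9 to 93.8 against 50.1 to 57.6 CPM, Casc1 at 2.27 to 3.02 against 3.27 to 5.53 CPM and Fgfr1op2 at 111 to 125 against 104 to 109 CPM. In the second window the zinc finger gene Zfp239 was at 46.6, 47.4, 55.4 and 55.5 CPM in the Cre-negative and at 31.5, 29.0, 22.8 and 37.8 CPM in the Cre-positive tumors (log2 fold change -0.75, SE 0.15, adjusted p = 0.262 from edgeR). Depp1, a target of FOXO factors, was at 0.968 to 1.27 against 1.41 to 2.90 CPM, and Hnrnpf, a splicing factor gene, at 110 to 126 against 96.5 to 110 CPM. On chromosome 1 the transcriptional repressor gene Zbtb18 was at 79.5 to 89.2 against 61.3 to 70.8 CPM (log2 fold change -0.34, SE 0.07, adjusted p = 0.304 from edgeR), and Vangl2, a planar polarity gene, at 7.72 to 10.8 against 10.9 to 13.6 CPM. The lead of the window at 140 Mb held with 5 Mb windows (7 of 60 genes from 145 Mb), whereas 20 Mb windows put chromosome 6 from 100 Mb first (10 of 142 genes).

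A cluster on chromosome 11 was high in 1 tumor of each Cre-positive mouse, and was chosen after its values were seen. Meis1, a homeobox transcription factor gene at 18879817 to 19018985, was at 75.3 CPM in G164 tumor 3 and at 93.5 CPM in G174 tumor 6. It was at 11.7 and 13.4 CPM in the other tumors of these mice and at 16.1, 16.7, 14.0 and 4.38 CPM in the Cre-negative tumors, so the sides overlapped. The neighbouring noncoding gene 8430419K02Rik was at 8.04 and 12.7 CPM in the same 2 tumors, at 0.289 and 0.0609 CPM in the other Cre-positive tumors and at 0.0155 to 0.126 CPM in the Cre-negative ones. All 7 tested genes that lie between 18 and 20 Mb were highest in these 2 tumors, and 5 of the 7 lie within the bounds of Meis1. None passed edgeR's test over tumors (adjusted p = 0.553 for Meis1 and 0.457 for 8430419K02Rik), and DESeq2 called 6 of the 7 per mouse (adjusted p = 0.00370 for Meis1), with the tumors of a mouse summed. Spred2, the next protein-coding gene named here, was at 19.3 to 21.3 CPM in the Cre-negative and at 19.6 to 31.1 CPM in the Cre-positive tumors. The pattern was not confined to this stretch. Slc47a1, from 61343401 on chromosome 11, was at 57.7 CPM in G164 tumor 3, 48.4 CPM in G174 tumor 6 and 2.38 to 17.4 CPM elsewhere. Dlx6os1 on chromosome 6 was at 3.53 and 8.18 CPM in these tumors and at 0.0155 to 0.503 CPM elsewhere.

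**Figure D5:**
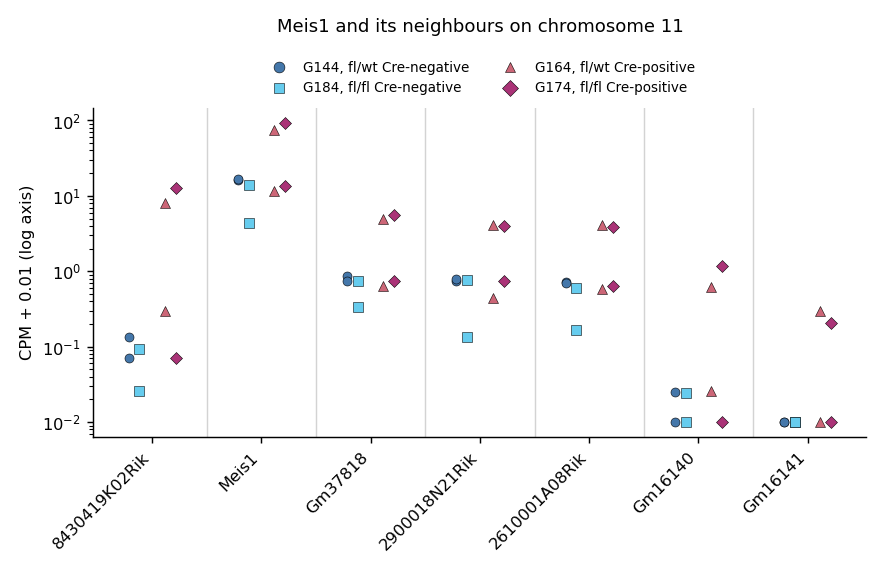
CPM (with 0.01 added, log axis) of Meis1 and 6 neighbouring genes on chromosome 11 in each tumor, with the shape and color giving the mouse. For each gene, 1 tumor of G164 and 1 of G174 lie above the other 6 tumors; Meis1 is at 75.3 and 93.5 CPM in these and at 4.38 to 16.7 CPM in the rest.

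Of the 10 milk genes, 3 lay without overlap, against 1.80% of all genes tested. Csn2, which encodes beta-casein, was at 1.78, 4.36, 4.58 and 0.249 CPM in the Cre-negative and at 75.4, 34.7, 28.8 and 4.76 CPM in the Cre-positive tumors. Csn1s2a, another casein gene, was at 1.37 to 2.29 CPM and at 17.3, 15.3, 22.1 and 4.11 CPM, and Glycam1, a secreted mucin of milk, at 0.305 to 0.480 CPM and at 1.56, 26.1, 3.15 and 0.858 CPM. The lowest Cre-positive tumor was G174 tumor 6 for all 3. None passed edgeR's test over tumors, with 3.48 for Csn2 (adjusted p = 0.414), 3.10 for Csn1s2a (0.180) and 3.72 for Glycam1 (0.365) on the log2 scale, whereas DESeq2 called all 3 per mouse. None of the other 7 milk genes lay without overlap or passed the test, although 7 of the 10 had a fold change above 0. Csn3 was at 4108 to 5646 CPM in the Cre-negative and at 2244 to 4724 CPM in the Cre-positive tumors, and Wap (2.60 to 41.6 against 11.5 to 58.8 CPM), Csn1s1 (6.15 to 124 against 61.6 to 136 CPM) and Lalba (63.3 to 252 against 31.1 to 227 CPM) overlapped. The median log2 fold change of the 10 milk genes was 0.59.

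Abi1 and 1 other gene lay without overlap among the WAVE and ARP2/3 genes, with 1.80% of all genes without overlap and 0.0901% passing the test. Of 13 WAVE complex and partner genes only Abi1 lay without overlap and passed, and the median log2 fold change was -0.05. An average over the pairs can hide unequal changes. In 5 of the 13, Abi1 included, the difference between the pairs passed the test, against 25.1% of all genes tested. In the study's own counts per mouse, Abi3, Wasf3 and Cyfip2 changed in opposite directions in the fl/wt and fl/fl pairs. Nckap1, the scaffold subunit, was at 278 to 324 against 281 to 308 CPM, Brk1 at 77.1 to 88.9 against 70.5 to 81.5 CPM and Abi2, the paralog of Abi1, at 48.6 to 61.5 against 50.3 to 69.6 CPM. Of 10 ARP2/3 genes, Arpc1a lay without overlap at 87.2 to 103 CPM in the Cre-negative and at 78.1 to 86.1 CPM in the Cre-positive tumors, which did not pass (log2 fold change -0.19, SE 0.06, adjusted p = 0.519 from edgeR). The 10 genes had a median log2 fold change of -0.18, with 1 above 0.

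Of the remaining lists, a list of genes that vary between strains held only a, the endothelial one held 1 of 12 members without overlap (all genes 1.80%), and Gbp2 alone among their other members passed the test (all genes 0.0901%). That endothelial member, Prox1, a transcription factor of lymphatic endothelium, was at 1.97 to 3.09 CPM in the Cre-negative and at 3.21 to 5.28 CPM in the Cre-positive tumors (log2 fold change 0.78, SE 0.15, adjusted p = 0.236 from edgeR). The luminal list was at 5116 to 5796 CPM in sum in the Cre-negative and at 4949 to 5237 CPM in the Cre-positive tumors, and its members Krt8 (735 to 934 against 615 to 777 CPM) and Krt18 (768 to 937 against 690 to 817 CPM) were abundant in every tumor. The 17 mitosis genes, with a median log2 fold change of -0.07, summed to 541 to 2031 against 1004 to 1416 CPM. The squamous list had a median log2 fold change of 1.43, with all 9 measured members above 0 and none past the test, and Krt10 was at 66.6 and 17.5 CPM in G164 against 1.89 to 3.69 CPM in the other 6 tumors. B and plasma cell genes had a median of 0.82, and Ighm was at 278 and 159 CPM in G164 against 2.21 to 28.2 CPM elsewhere. T and NK cell genes summed to 21.1 to 53.6 against 13.1 to 53.3 CPM, and macrophage and dendritic cell genes to 620 to 1511 against 724 to 1134 CPM. Some lists leaned down. The T and NK cell list had a median log2 fold change of -0.33, with 0 of 15 members above 0. The list of antigen presentation (MHC) genes had a median of -0.30, with 2 of 18 measured members above 0. No member of either list passed the test. Skeletal muscle genes were high in 1 tumor of each side, with Acta1 at 75.8 CPM in G144 tumor 8, at 73.6 CPM in G164 tumor 3 and at 0.144 to 0.587 CPM in the other 6.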

How the data were processed

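Base calls were converted with bcl2fastq and reads were aligned and counted per gene with STAR on GRCm38/mm10 by the authors, who deposited raw counts per gene for each lane; which versions and annotation release they used is not given in the sources used here. Sums per mouse that they also deposited served only as a check and for gene names. Reverse-strand counts were summed over lanes and runs per tumor, and symbols and positions were taken from GENCODE M21. edgeR 4.0.16 (filterByExpr, TMM, quasi-likelihood test, Benjamini-Hochberg adjustment at 0.05) was used in R 4.3.3, with the mouse as group over 8 tumors, or with counts summed per mouse; the common coefficient of variation was 0.229 and 0.376, with 4 and 2 residual degrees of freedom. Standard errors follow from the F statistic. Alternatives used DESeq2 1.42.0 and limma 3.58.1. The fits were tested on simulated data. Pseudogenes were paired with the protein-coding transcript sharing most 15-base words. Named were Abi1; the genes past the test per mouse (none); up to 12 in each direction past the test over tumors without overlap and at 1 CPM or more; up to 8 in each of the 3 leading windows; and from each list up to 4 passing members or the most abundant; 1 of these genes is not reported here. The other genes past the test over tumors, and genes named beside these, were chosen after their values were seen. Members and lists were chosen with earlier results of these data known. Each genotype is 1 mouse. Intervals cover counting error only.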

Additional observations from a re-analysis of the deposited data

Results flagged for a closer look

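Among the 4 tumors of a side, 1 tumor stood apart from the other 3 by Dixon's ratio (gap over range, at the 95% level) in 6 of 122 gene and side combinations checked; chance gives about 1 in 20. Agouti was lower in G174 tumor 1 than in the other Cre-positive tumors (ratio 0.879). Among Cre-positive tumors, S100a8 (0.845) and Glycam1 (0.909) were high in G164 tumor 6, and Ttn was high in G164 tumor 3 (0.989). Among Cre-negative tumors, Ttn was high in G144 tumor 8 (0.968) and Usf1 in the same tumor (0.847).

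For 13 of the 20 genes that passed the test over tumors, the Cre difference was unequal in the fl/fl and fl/wt mice by edgeR's test of the difference between the pairs. The fl/fl log2 fold change exceeded the fl/wt one by 10.17 for AC165951.1, 5.47 for Atp6v0c-ps2, 5.06 for Ifi44l, 4.75 for Gm9855, 4.03 for Gm14292 and 1.498 for Wls. It lay below it, with differences of -7.13 for Clec9a, -7.01 for Apol6, -6.43 for Gm4841, -4.74 for Gbp2, -3.05 for Abi1, -2.60 for Pianp and -1.49 for Irf1. In 9 of these 13 the sides overlapped. Each pair is 1 mouse against 1, and the same contrast sets the younger mice against the older ones. Mouse, genotype and age therefore cannot be told apart.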

How the results depend on the processing

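No gene named by rule or past the test over tumors changed direction while past the test under any alternative. The genes named beside these were not checked for this. Over tumors, the count of 20 genes became 288 with DESeq2 (140 higher, 148 lower), 413 without the filter on low counts, 1 with limma voom and the mouse as a random block, and 10 to 26 when 1 tumor was left out; 8 genes kept their call without each tumor in turn (a, Abi1, AC165951.1, Cntn4, Gm13394, Gm8116, Gm9855 and Ifi44l). Without both tumors with high muscle genes (G144 tumor 8 and G164 tumor 3), chosen after seeing the data, 1 gene was called. Per mouse, the count of 0 became 22 with DESeq2 and 4 without the filter, and was 0 to 4 when 1 mouse or tumor was left out. Abi1 kept its direction. Its log2 fold change was -2.34 (adjusted p = 0.156 from edgeR) without both muscle tumors and -2.48 (adjusted p = 1 from limma) with the random block. The random-block fit used 1 correlation between the tumors of a mouse for all genes (0.507) and had no genotype term.

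Genes without overlap, 399, were 24 with a gap of at least 1.5-fold, 1079 without both muscle tumors and 656 to 1144 without 1 tumor, where fewer tumors have to separate. The fl/fl against fl/wt count, 658, was 1789 without both muscle tumors and 953 to 1607 without 1 tumor. The chromosome 6 share, 3.05%, was 1.97% without the filter, 5.93% without both muscle tumors and 3.57% to 6.26% without 1 tumor. The share over all genes, 1.80%, moved as well, to 1.42%, 4.72% and 2.85% to 4.96% in the same settings. The difference between the pairs, 5579 genes, was 1450 without both muscle tumors and 2079 to 4817 without 1 tumor. Members of the lists called over tumors, 3, were 16 with DESeq2, 22 without the filter, 0 with the random block, 0 without both muscle tumors and 2 to 5 without 1 tumor. Genes near 0 CPM are limited by depth.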
